A study of Mus musculus with 121 samples.

Results

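Genes of skeletal muscle were followed through arrays of mouse tumours that had been grown in the hind leg. The list held 36 genes, sorted by role into fast fibre (13), slow fibre (5) and embryonic myosin (2) genes, structural genes shared by all fibres (8), excitation-contraction coupling genes (2) and genes of energy and oxygen supply (6). Probes were matched by the gene symbol of the platform annotation. Each gene was read from its brightest probe with a value on at least 90% of arrays. By this rule 32 of the 36 genes were measured, of 15163 genes in all. No probe carried the symbols Neb, Smpx or Ampd1, and the Actn2 probe had values on 77.69% of arrays.

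Male C3H/HeMs mice carried 1 of 6 transplanted tumours, and the tumour was irradiated locally with a single dose of gamma rays or carbon ions. RIF was induced by radiation and nfsa arose spontaneously, and both are fibrosarcomas. Of the other tumours, mmca and mca4 came from mammary carcinoma, while scc7 and nrs1 are of squamous cell origin. The series held one-colour arrays, 81 of gamma-irradiated tumours and 40 of carbon ion-irradiated tumours, in 54 groups of 2 or 3 arrays. All animals shared the strain and the tumour site, and no array of leg muscle by itself was used here.

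At day 1 after gamma rays, RIF, nfsa, mmca and mca4 were each sampled at 30, 50 and 70 Gy beside an unirradiated group (0 Gy), with 2 arrays a group. Later gamma groups received 30 or 50 Gy and held 2 or 3 arrays. They were RIF at 30 Gy (days 8 and 16) and 50 Gy (day 22), nfsa at 30 and 50 Gy (days 4 and 9), mmca at 30 Gy (day 9) and 50 Gy (day 19), and mca4 at 30 Gy (day 11) and 50 Gy (days 25 and 41). scc7 was sampled at 30 Gy (day 8) and 50 Gy (days 23 and 35), and nrs1 at 30 Gy (day 8) and 50 Gy (day 15). A further unirradiated mmca group was taken at day 9. All carbon ion groups received 30 Gy and held 2 arrays. mmca and mca4 were taken at hour 6 and days 1, 3, 5 and 20 beside unirradiated tumours at hour 0. RIF, nfsa and nrs1 were taken at days 5 and 20, and scc7 at days 5 and 42, with no unirradiated carbon ion group. The gamma scc7 and nrs1 groups also had no unirradiated tumours.

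Skeletal muscle contracts when myosin heads pull on actin filaments, a step that calcium switches on through the troponin complex. Fast and slow fibres build the same machine from different gene copies, so that fast troponins, myosins and the calcium pump have slow counterparts, and embryonic and perinatal myosins are made in developing and regenerating fibres. Leg muscles of the mouse are built mainly of fast fibres, with slow fibres gathered in a few muscles such as the soleus. A tumour growing in the leg lies against or within such muscle, and tissue taken with it can add muscle RNA to the sample. In such bulk samples fewer muscle cells and less muscle RNA per cell cannot be told apart.

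Control regions of muscle genes often hold E-boxes, the binding motif of MyoD and myogenin, next to sites for MEF2 and for serum response factor (the CArG box). The 250 bases before an annotated RefSeq start (build GRCm38.p6) were available for 26 of the 32 measured genes. They are shown for 5 genes on which the results below turn, 1 each from the shared, energy, fast, slow and embryonic genes. Each is written 5′ to 3′, and capitals mark matches to the E-box CANNTG, to TATAAA, or to the MEF2 or CArG motif on either strand.
Acta1 (chr8:123894776-123895025, minus strand): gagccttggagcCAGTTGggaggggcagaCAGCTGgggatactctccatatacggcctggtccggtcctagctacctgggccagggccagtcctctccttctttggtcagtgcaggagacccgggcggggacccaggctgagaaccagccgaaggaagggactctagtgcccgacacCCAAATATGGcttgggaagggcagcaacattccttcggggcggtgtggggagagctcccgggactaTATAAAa
Ckm (chr7:19410844-19411093, plus strand): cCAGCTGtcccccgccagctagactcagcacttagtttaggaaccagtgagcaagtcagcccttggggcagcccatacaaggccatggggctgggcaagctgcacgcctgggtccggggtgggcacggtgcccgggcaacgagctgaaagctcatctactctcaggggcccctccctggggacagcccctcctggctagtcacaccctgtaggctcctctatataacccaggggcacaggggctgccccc
Tnnc2 (chr2:164779735-164779984, minus strand): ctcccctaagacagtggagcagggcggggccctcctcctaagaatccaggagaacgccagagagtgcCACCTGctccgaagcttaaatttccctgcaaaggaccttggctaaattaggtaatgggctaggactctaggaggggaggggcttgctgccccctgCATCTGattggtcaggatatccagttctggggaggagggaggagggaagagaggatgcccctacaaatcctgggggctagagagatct
Tnnc1 (chr14:31208062-31208311, plus strand): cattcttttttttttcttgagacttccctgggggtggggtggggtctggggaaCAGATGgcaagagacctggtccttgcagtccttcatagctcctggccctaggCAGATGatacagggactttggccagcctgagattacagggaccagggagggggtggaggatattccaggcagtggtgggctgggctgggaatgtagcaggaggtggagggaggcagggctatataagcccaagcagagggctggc
Myh3 (chr11:67078050-67078299, plus strand): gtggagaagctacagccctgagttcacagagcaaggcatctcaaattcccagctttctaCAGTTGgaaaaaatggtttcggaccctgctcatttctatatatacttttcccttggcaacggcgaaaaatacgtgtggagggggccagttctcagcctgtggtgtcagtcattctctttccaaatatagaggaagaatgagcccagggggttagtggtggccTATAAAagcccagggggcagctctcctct

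The E-box CAGCTG, 1 of the forms of CANNTG, stood in 13 of the 26 muscle promoters (50%) and in 12.8% of 27025 promoters of the same length. CANNTG in any form stood in 23 of 26 (88.5%), against 66% of all. TATAAA was found in 7 of 26 (26.9%, against 13% of all), the MEF2 motif in 6 (23.1%, against 3.01%) and the CArG motif in 2 (7.69%, against 1.4%). Acta1, skeletal alpha actin, and Ckm, muscle creatine kinase, each held CAGCTG. The promoters of the fast and slow troponin C genes Tnnc2 and Tnnc1 and of embryonic myosin Myh3 held other CANNTG forms. Acta1 and the fast myosin Myh4 were the only members of the 26 with a CArG match. These matches describe letters only, in a window of 250 bases. The annotated span of Myh3 begins at 67078273, so the last bases of its window lie inside the gene.

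Values are deposited one-colour intensities, given here as log2 intensity with a floor of -2.98, so that 1 unit is a 2-fold difference for the same probe. Values were missing for 9.99% to 18.6% of probes on gamma arrays and for 0.541% to 4.92% on carbon ion arrays. Muscle genes ranged from floor values to among the brightest signals of an array. Fast troponin C (Tnnc2), the calcium sensor of fast fibres, lay between -2.44 and 8.37 over all arrays, and the brightest value on any 1 array lay between 7.5 and 9.57. Fast myosin heavy chain Myh4 spanned -2.48 to 8.19, Acta1 spanned -1.52 to 8.26, and the calcium-binding protein parvalbumin (Pvalb) spanned -2.71 to 8.05. Slow troponin C (Tnnc1) spanned -2.34 to 3.81, and Myh3 spanned -2.61 to 3.24. In 30 of the 32 genes the mean signal lay above the lowest 20% of genes. The exceptions were Myh1 (mean -0.953) and Myh3 (mean -0.960).

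The spread between replicate arrays differed by experiment. Among the 49 gamma arrays taken from day 4 to day 41 (18 groups), the standard deviation (SD) of a muscle gene within its group had a median of 1.3 log2 units over the 32 genes, with a range of 0.642 to 2.75. The median over all 15163 genes was 0.183 and the 95th percentile 0.436, so all 32 muscle genes lay above it. Among the 32 gamma arrays of day 1 (16 groups) the muscle median was 0.118, against 0.132 over all genes. Among the 40 carbon ion arrays (20 groups) it was 0.112, against 0.115 over all genes. No muscle gene passed the 95th percentile of all genes in either set (0.292 at day 1 and 0.265 for carbon ions).

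**Figure D1:**
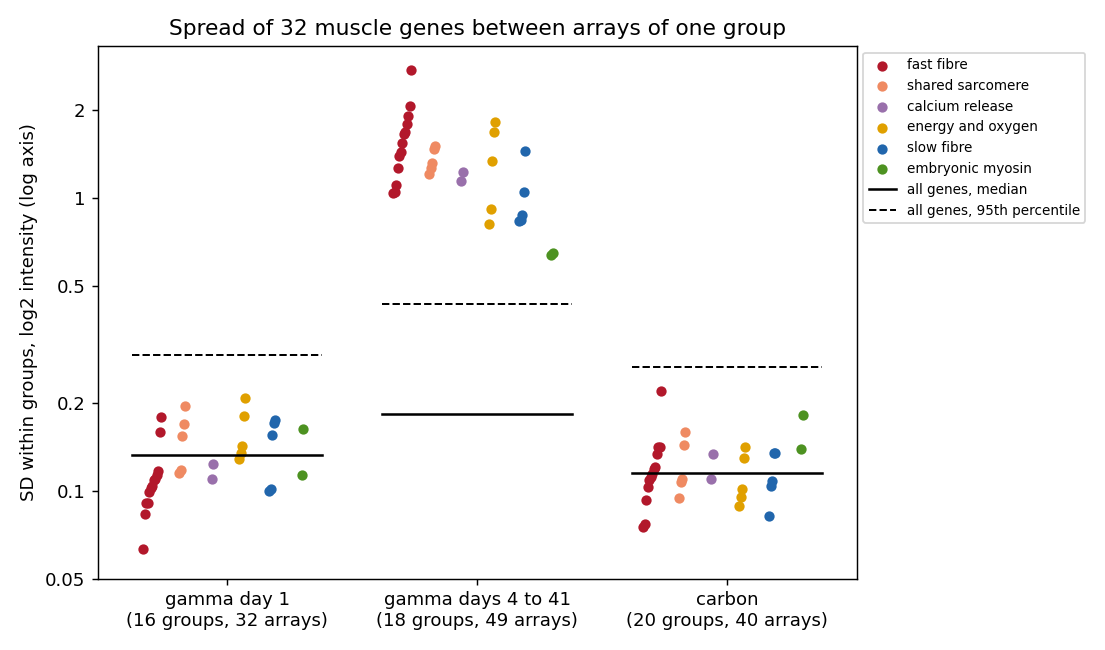
Within-group SD (log2 units, log axis) of each of the 32 muscle genes in late gamma arrays (days 4 to 41), gamma day 1 arrays and carbon ion arrays, with 1 point per gene and lines for the median and the 95th percentile of all 15163 genes. The late gamma points have a median of 1.3 and all stand above the 95th percentile line, while the day 1 and carbon ion points have medians of 0.118 and 0.112, near the all-gene medians.

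Replicate arrays of 1 late group therefore held very different muscle signals. The mean of the 13 fast fibre genes differed between the highest and lowest array of a late gamma group by 0.669 to 4.01 log2 units (median 2.58), and by over 1 unit in 17 of the 18 groups, over the genes measured on all arrays of the group. The widest gap was in scc7 at 50 Gy, day 35, where the means of the 9 fast genes measured on both arrays were 3.33 and -0.678, a 16.1-fold difference, and the second array lacked values for 8 muscle genes. In that pair Acta1 was 5.53 and -1.52, and Tnnc2 was 4.50 and -2.44. The narrowest was RIF at 30 Gy, day 8, with fast means of 4.76, 4.44 and 4.10. At day 1 and after carbon ions no pair differed by more than 0.169 units, or 1.12-fold. Other list means given here are over the genes measured on each array, and 9 of 49 late gamma arrays, 5 of 32 day 1 arrays and 2 of 40 carbon ion arrays lacked at least 1 fast gene.

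The highest fast mean of all arrays was replicate 3 of nfsa at 50 Gy, day 4, at 7.06, where the other replicates of that group had 3.55 and 3.40. Tnnc2 was 5.46, 5.60 and 8.37 in these 3 arrays. Creatine kinase (Ckm), which buffers ATP in contracting fibres, was 0.588, 0.510 and 6.29. Thus 1 array of 3 carried most of the muscle signal of its group. In the nfsa 50 Gy group of day 9 the order was different, with Tnnc2 at 8.12, 8.26 and 5.60 and Ckm at 4.17, 4.45 and 0.361, so that 2 arrays were high and 1 low.

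The spread between arrays of a group can be set beside the spread between groups. For the fast mean, the SD of group means was 1.48 in late gamma arrays and the pooled SD within groups was 1.53. At day 1 the 2 values were 1.99 and 0.0566, and after carbon ions 1.4 and 0.0519. For the slow mean they were 1.45 and 0.817 in late gamma arrays, 1.44 and 0.118 at day 1, and 1.18 and 0.0578 after carbon ions. For the embryonic mean they were 0.803 and 0.597, then 0.496 and 0.119, then 0.894 and 0.159. For the fast mean, and for the slow mean at day 1, group means thus spread about as widely as later or more. The slow mean after carbon ions and the embryonic mean at day 1 spread less. Replicate arrays of the day 1 and carbon ion groups nearly coincided. The late SD of group means also holds the spread between replicates, and the day 1 set has no scc7 or nrs1, so these widths compare only loosely. The labels do not state whether the arrays of a group came from separate animals, so p-values measure only the spread between these arrays, which may be technical.

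**Figure D2:**
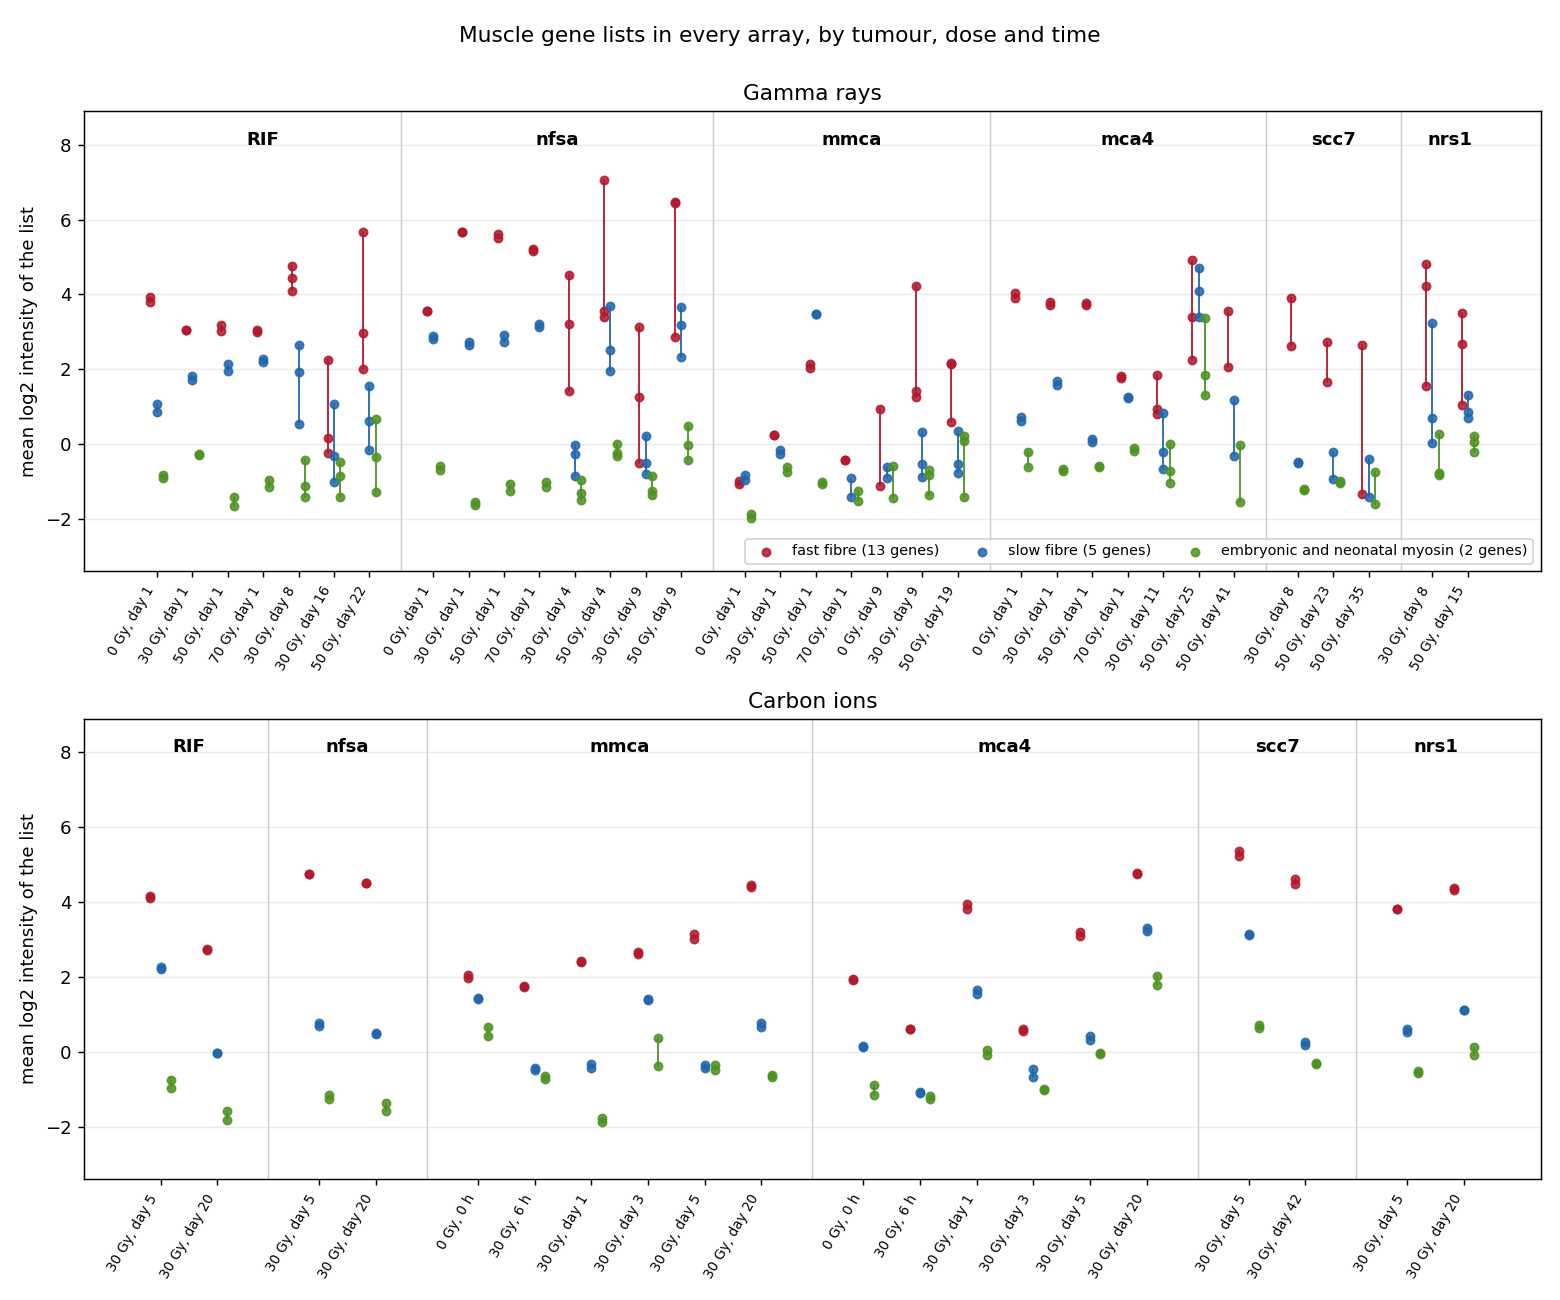
Mean log2 intensity of the fast (13 genes), slow (5) and embryonic (2) muscle genes on each array, over the genes measured on that array, by group, with gamma and carbon ion groups in separate panels. Points of 1 group nearly coincide at gamma day 1 and after carbon ions, and late gamma groups spread by up to 3.99 log2 units in the fast mean.

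Muscle genes moved together from array to array. Each gene was taken as its deviation from the mean of its group over the 49 late gamma arrays, and correlated with the mean deviation of the fast genes, leaving the gene itself out of that mean. All points share the array and its scaling, so the correlations are descriptive. The fast calcium pump Atp2a1, which returns calcium to its store, had the highest r, 0.983, and the 13 fast genes lay between 0.794 (Myh1) and 0.983. The median r of all genes was -0.0332, and 86 genes passed 0.8.

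Structural and metabolic genes followed the fast ones. Among shared genes, the titin cap Tcap reached r = 0.938, titin (Ttn) 0.905 and desmin (Des), the intermediate filament of muscle, 0.857. The coupling genes Ryr1, the calcium release channel, and Cacna1s, its voltage sensor, had 0.897 and 0.913. Among energy genes, muscle phosphoglycerate mutase Pgam2 had 0.965, Ckm 0.945, myoglobin (Mb) 0.830 and muscle glycogen phosphorylase Pygm 0.772. The slow troponins and the slow myosin light chain Myl2 did not follow as closely, with 0.157 for Tnnc1, 0.248 for Tnni1, 0.318 for Tnnt1 and 0.282 for Myl2. Mybpc1, the slow myosin-binding protein C, stood apart from that group at 0.822. Of the developmental myosins, embryonic Myh3 had -0.253 and perinatal Myh8 0.155.

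**Figure D3:**
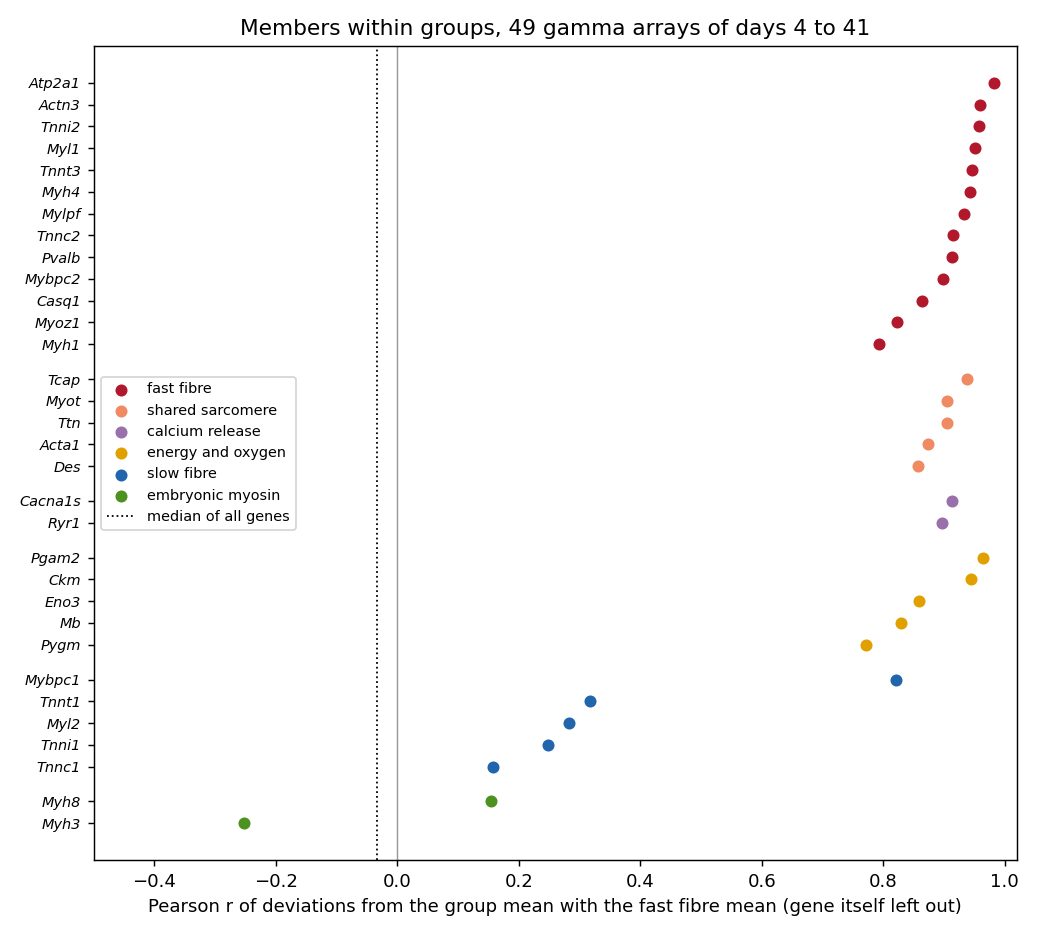
Correlation (Pearson r, horizontal axis) of each muscle gene's deviation from its group mean with that of the fast mean over 49 late gamma arrays, with 1 point per gene, coloured by role. The dotted line marks the median of all genes, -0.0332; fast, shared, coupling and energy genes lie between 0.772 and 0.983, and Tnnc1, Tnni1, Tnnt1, Myl2, Myh3 and Myh8 between -0.253 and 0.318.

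The 4 slow genes Tnnc1, Tnni1, Tnnt1 and Myl2 varied with each other. Over the same 49 arrays their 6 pairs had a median r of 0.774 (0.596 to 0.939), and the 78 pairs of fast genes had 0.87 (0.655 to 0.971). Pairs of 1 fast gene with 1 of these slow genes had a median of 0.262 (-0.0866 to 0.431). Myh3 and Myh8 had r = 0.711 with each other, while the embryonic genes had a median of -0.0728 with fast genes and 0.424 with the 4 slow genes. These 4 leave out Mybpc1, the slow gene that followed the fast ones, so their low r with fast genes rests partly on that choice. The mean of all 5 slow genes had r = 0.504 with the fast mean over the same arrays. In these arrays the fast, slow and embryonic signals thus varied together only in part. Across the 54 group means r was 0.585 between the fast mean and the mean of these 4 slow genes, 0.285 between fast and embryonic, and 0.486 between slow and embryonic.

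**Figure D4:**
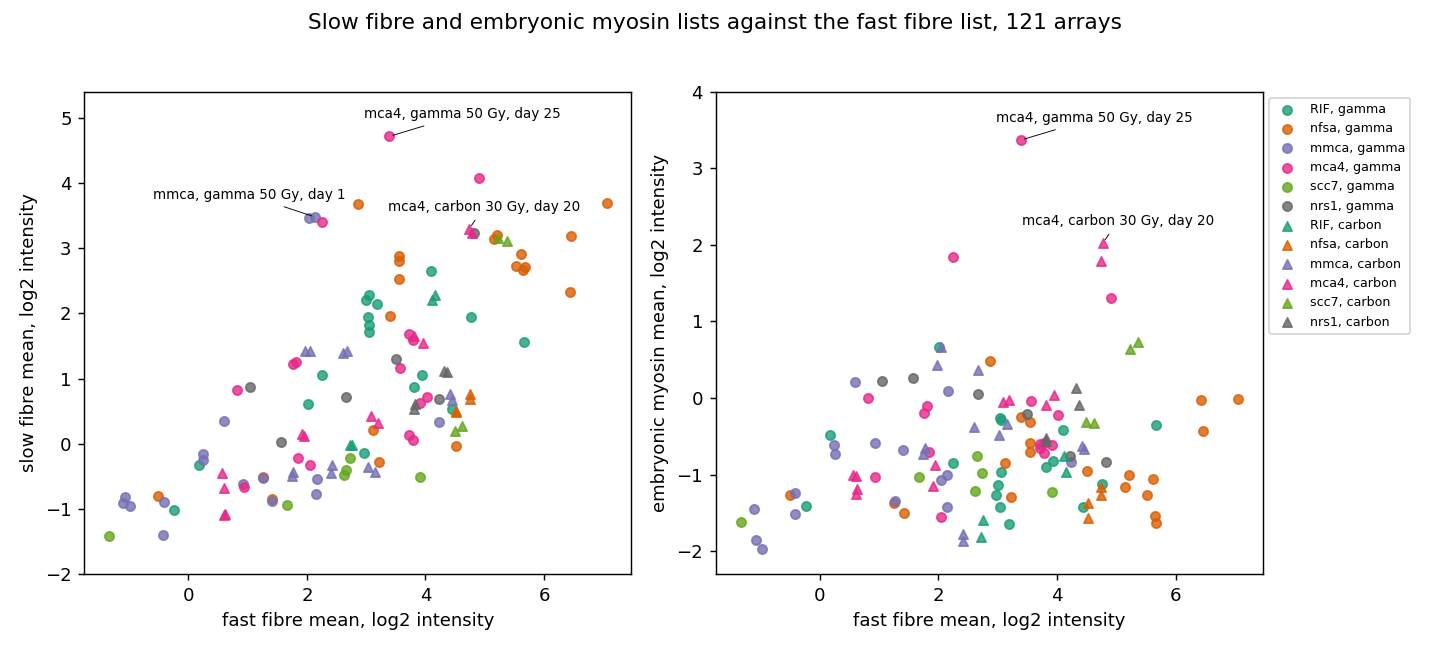
Mean log2 intensity of the slow genes (5) and of the embryonic myosin genes (2) against the mean of the fast genes (13) on each array. Slow values spread over several log2 units at a given fast level, and embryonic values above 1 occur on 5 arrays, 3 of mca4 after 50 Gy at day 25 and 2 of mca4 after carbon ions at day 20.

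The group with the most slow and embryonic signal was mca4 after 50 Gy at day 25, at 4.08, 3.40 and 4.71 for the slow mean and 1.31, 1.84 and 3.37 for the embryonic mean. Myh3 was 0.735, 1.78 and 3.24 there, against -0.507 and -0.917 in unirradiated mca4. Myh8 was 1.89, 1.90 and 3.50, against 0.0678 and -0.302, and Tnnc1 was 2.76, 2.46 and 3.81, against -0.226 and -0.270. Replicate 3 was the highest in each of these 3 genes. They belong to the lists by which the group was picked out, so their values describe it and test nothing. The fast mean of the same arrays ran otherwise, at 4.91, 2.25 and 3.39, against 4.03 and 3.91. Pvalb differed widely between the replicates, at 6.29, 0.143 and -0.704, against 5.14 and 5.21. Among the carbon ion groups the highest embryonic mean was also in mca4, at day 20, with Myh3 at 1.39 and 1.23 and Myh8 at 2.67 and 2.34, against -1.22 and -1.76 and -0.531 and -0.538 at hour 0.

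Changes were tested with limma in 1 model of all 54 group means, with p-values adjusted over all genes tested (Benjamini-Hochberg) and a threshold of 0.05. Because the model pools the residual spread of all arrays, muscle genes carried a median residual SD of 0.888 into each test, against 0.162 over all genes, and all 32 lay in the highest 5% of genes. Standard errors (SE) of muscle genes are therefore large at day 1 and after carbon ions, where replicates nearly coincided. Where a model of only the arrays of that tumour and beam moved the count by over 1.5 times or ended a named call, this is given. Comparisons of 1 tumour with the same unirradiated arrays share them and are not independent.

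In mmca at day 1, 14 muscle genes rose and none fell of 26 with values in both groups, where 30.2% of all genes tested were called (16.4% higher and 13.8% lower). The median change was 1.76 on the log2 scale, against 0.014 over all genes. Acta1 by dose was 0.067 and 0.118 at 0 Gy, 2.17 and 2.02 at 30 Gy, 6.64 and 6.76 at 50 Gy, and 1.23 and 1.21 at 70 Gy. Irradiated arrays were all above the unirradiated ones, and the dose order was not monotonic, with 50 Gy highest. Tnnc2 rose by 4.01 (SE 0.959, adjusted p = 8.29e-04) and Acta1 by 3.24 (SE 0.793, adjusted p = 0.00108). The slow genes Tnnt1 (2.37, SE 0.457, adjusted p = 4.23e-05) and Tnni1 (1.96, SE 0.459, adjusted p = 6.47e-04), and Des (2.81, SE 0.644, adjusted p = 5.07e-04) rose too. Mylpf, the fast regulatory light chain, rose by 2.58, Tnnc1 by 1.46 and Myh3 by 1.44, and Myh4 had a change of 1.99 that did not pass the test (adjusted p = 0.169).

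The fast and slow genes of mmca followed the same order of doses. The mean of the 3 slow genes measured on all 8 arrays (Tnnc1, Tnni1 and Tnnt1) was -0.77 and -0.90 at 0 Gy, 0.531 and 0.426 at 30 Gy, 3.33 and 3.45 at 50 Gy, and -0.539 and -0.621 at 70 Gy. The mean of the 12 fast genes measured on all 8 was -0.750 and -0.650 at 0 Gy, 0.507 and 0.518 at 30 Gy, 2.40 and 2.49 at 50 Gy, and -0.0994 and -0.0876 at 70 Gy. Both means were above 0 Gy at each dose and highest at 50 Gy. Ckm had no value on either unirradiated array of day 1, was -2.93 and -2.68 at 30 Gy, 1.45 and 1.18 at 50 Gy, and -2.78 and -2.98 at 70 Gy, and could not be tested. With each group reduced to 1 value, none of the 26 genes passed, and leaving out either unirradiated array left 7. Unirradiated groups of 1 tumour also differed widely. In mmca the mean over all measured fast genes was -1.08 and -0.977 at gamma day 1 and 0.926 and -1.105 at day 9. At hour 0 of the carbon ion experiment it was 1.97 and 2.05. Unirradiated mca4 had 4.03 and 3.91 at gamma day 1, and 1.95 and 1.92 at hour 0. The part of such differences in the day 1 changes was not tested.

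In nfsa at day 1, 10 of 32 muscle genes rose and none fell, where 27.3% of all genes were called (9.30% higher and 18.0% lower), and the median change was 1.57. All 13 fast genes had positive changes and 6 passed. Myh4 was 3.26 and 3.47 at 0 Gy, 6.27 and 6.42 at 30 Gy, 6.48 and 6.58 at 50 Gy, and 5.97 and 5.94 at 70 Gy, so that all irradiated arrays lay above the unirradiated ones. The rise of Myh4 was 2.91 (SE 1.09, adjusted p = 0.0383). Pygm, which releases glucose from glycogen, rose by 1.90 (SE 0.497, adjusted p = 0.00266), and alpha-actinin 3 (Actn3), found in the Z-lines of fast fibres, rose by 2.49 (SE 0.765, adjusted p = 0.0104). None of the 5 slow genes passed, and 2 were positive. Tnnc1 had 1.85 and 1.81 at 0 Gy, 1.56 and 1.46 at 30 Gy, 1.08 and 1.66 at 50 Gy, and 2.10 and 1.93 at 70 Gy. In a model of nfsa gamma arrays alone no fast gene passed and 1 muscle gene, an embryonic one, fell, where 18.0% of all genes were called. No gene passed with 1 value a group or without unirradiated replicate 1, and 1 passed without unirradiated replicate 2.

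In RIF at day 1, 3 of the 5 slow genes rose, while 12 of the 13 fast genes had negative changes that did not pass. Of 32 genes 3 rose and 3 fell, where 48.2% of all genes were called (18.0% higher and 30.2% lower), and the median change was -0.58. Myl2 was -0.532 and -0.243 at 0 Gy, 1.56 and 1.58 at 30 Gy, 2.15 and 2.23 at 50 Gy, and 2.05 and 2.11 at 70 Gy, and the irradiated arrays did not overlap the unirradiated ones. It rose by 2.33 (SE 0.566, adjusted p = 4.65e-04), Tnnc1 by 1.49 (SE 0.478, adjusted p = 0.00739) and Tnnt1, slow troponin T, by 1.11 (SE 0.457, adjusted p = 0.0389). Des fell by 1.79 (SE 0.644, adjusted p = 0.0174), with 3.85 and 4.00 at 0 Gy, 1.77 and 1.75 at 30 Gy, 1.55 and 1.68 at 50 Gy, and 3.01 and 3.05 at 70 Gy. Cacna1s fell by 1.60 and Ryr1 by 1.60. No fast gene passed. In a model of RIF gamma arrays alone 1 muscle gene passed, where 42.2% of all genes were called. Leaving out either unirradiated array left 1, and with 1 value a group none passed.

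In mca4 at day 1, 1 of 32 genes rose and 3 fell, where 39.8% of all genes were called (19.6% higher and 20.2% lower). All 13 fast genes had negative changes and none passed. The fast mean was 4.03 and 3.91 at 0 Gy, 3.79 and 3.72 at 30 Gy, 3.78 and 3.72 at 50 Gy, and 1.76 and 1.81 at 70 Gy. The 70 Gy group alone lay far below the rest, with Acta1 at 4.62 and 4.68, against 6.34 and 5.80 at 0 Gy. Cacna1s fell by 1.72 (SE 0.613, adjusted p = 0.0201), Des by 1.77 (SE 0.644, adjusted p = 0.0223) and Ryr1 by 1.58 (SE 0.659, adjusted p = 0.0479), while Myl2 rose by 1.55 (SE 0.589, adjusted p = 0.0303). Des was 3.25 and 3.24 at 0 Gy, 2.87 and 2.93 at 30 Gy, 0.380 and 0.527 at 50 Gy, and 1.03 and 1.09 at 70 Gy, lowest at 50 Gy. In a model of mca4 gamma arrays alone 1 gene rose and 6 fell, where 35.5% of all genes were called. None passed when either unirradiated array was left out or with 1 value a group, and 2 passed without 30 Gy replicate 2.

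The day 1 change differed between tumours of the same kind. The change of mmca minus that of mca4 passed for 14 of 26 genes, all positive, where 32.8% of all genes were called (17.9% positive). A model of these gamma arrays alone called 17, where 35.2% of all genes were called, and the count was 9 without unirradiated replicate 1 of either mca4 or mmca and 0 with 1 value a group. The difference was largest in size among called genes for Tnnc2, at 4.61 (SE 1.36, adjusted p = 0.00593), and it was 4.58 for Des (SE 0.911, adjusted p = 5.88e-05) and 3.86 for Acta1 (SE 1.12, adjusted p = 0.00542). The change of nfsa minus that of RIF passed for 8 of 32, all positive, where 18.5% of all genes were called (10.3% positive). In a model of nfsa and RIF gamma arrays alone none of the 32 passed, where 10.7% of all genes were called, and the lowest adjusted p was 0.0631 (Actn3). Leaving out 1 array gave 3 to 6 calls, with the count moved by over 1.5 times by 15 of the 16 arrays, and with 1 value a group none passed. In the model of all arrays the difference was 3.55 for Ryr1 (SE 0.932, adjusted p = 0.00445) and 3.97 for Actn3 (SE 1.08, adjusted p = 0.0062). For Myh4 it was 4.05 and did not pass (adjusted p = 0.0557).

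The late gamma groups of RIF, nfsa and mca4 were set against the unirradiated tumours of day 1, so that dose and sampling time differ together. In RIF, 8 of 32 genes fell and none rose, where 64.5% of all genes were called (28.1% higher and 36.4% lower), and the median change was -0.58. Tnni2, fast troponin I, fell by 1.78 (SE 0.539, adjusted p = 0.00311), Des by 1.83 (SE 0.617, adjusted p = 0.00753) and Atp2a1 by 2.12 (SE 0.793, adjusted p = 0.016). Des was 2.83, 2.41 and 2.72 at 30 Gy day 8, -1.28, 2.21 and 0.886 at day 16, and 4.95, 2.17 and 1.92 at 50 Gy day 22, against 3.85 and 4.00 at 0 Gy. Replicate 1 of day 22 lay above the unirradiated arrays and the other 8 below them. Without that array 13 genes fell, and without unirradiated replicate 1 or 2 the count was 2 or 1.

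In the late gamma groups of mmca, 8 of 32 genes rose and none fell against unirradiated tumours of day 9, where 40.1% of all genes were called (22.5% higher and 17.6% lower), and the median change was 0.97. Fast genes made up 7 of the 8, and Acta1 was the other. Tnnc2 was 2.96, 2.79 and 6.11 at 30 Gy day 9, and 3.63, 3.70 and 2.17 at 50 Gy day 19, against 2.08 and -2.40 at 0 Gy day 9. All 6 irradiated arrays lay above both unirradiated arrays, which themselves differed by more than 4 units. Tnnc2 rose by 3.72 (SE 0.959, adjusted p = 0.00119), Tnni2 by 1.94 (SE 0.562, adjusted p = 0.00408), Acta1 by 2.52 (SE 0.793, adjusted p = 0.00813) and Mylpf by 2.06 (SE 0.679, adjusted p = 0.0117). None of the slow or embryonic genes passed, and Tnnc1 had -1.04, -1.03 and -0.955 at 30 Gy and -1.26, -1.84 and -0.154 at 50 Gy, against -0.441 and -1.05. Without unirradiated replicate 2 of day 9 no gene passed, and without 30 Gy replicate 3 there were 4. With 1 value a group none passed.

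In the late gamma groups of nfsa, averaged over both doses, slow genes were lower while fast genes as a group had a median change of 0.13. Of 32 genes 1 rose and 5 fell, where 58.2% of all genes were called (26.7% higher and 31.6% lower). Tnnc1, Tnni1, Tnnt1 and Myl2 all fell, Tnni1 by 2.14 (SE 0.429, adjusted p = 1.62e-05) and Tnnc1 by 2.02 (SE 0.455, adjusted p = 1.12e-04). The lowest values lay in the 30 Gy groups. Tnni1 was -0.201, -1.15 and 0.318 at day 4 and -0.877, 0.185 and -0.987 at day 9 after 30 Gy, but 2.86, 2.50 and 3.26 at day 4 and 2.23, 3.08 and 3.84 at day 9 after 50 Gy, against 3.61 and 3.18 at 0 Gy. All 6 arrays of 30 Gy lay below the 6 arrays of 50 Gy, a split that no test addressed. The slow mean ran from -0.852 to 0.205 after 30 Gy and from 1.966 to 3.695 after 50 Gy, against 2.875 and 2.797 at 0 Gy. The fast mean also varied by dose, with overlap. It was 4.51, 1.42 and 3.22 (day 4) and -0.510, 3.12 and 1.25 (day 9) after 30 Gy. After 50 Gy it was 3.55, 3.40 and 7.06 (day 4) and 6.43, 6.46 and 2.87 (day 9), against 3.55 and 3.55 at 0 Gy. The fast myosin Myh1 rose by 2.07 (SE 0.554, adjusted p = 0.00111) and Des fell by 1.96 (SE 0.603, adjusted p = 0.00412). With 1 value a group none passed.

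In the late gamma groups of mca4, 3 of 32 genes rose and 9 fell, where 60.8% of all genes were called (29.0% higher and 31.8% lower), and the median change was -0.97. Those that rose were Myl2, by 2.21 (SE 0.581, adjusted p = 8.02e-04), Myh8, by 0.81 (SE 0.347, adjusted p = 0.0384), and Tnnt1, by 1.00 (SE 0.445, adjusted p = 0.0469). These are slow and perinatal genes, and their high values came from day 25, with Myl2 at 4.37, 3.77 and 4.78, against 0.147 and -1.18 at day 11 and -0.502 at day 41, where the remaining arrays had no value. Among those that fell were Des, by 2.23 (SE 0.626, adjusted p = 0.00158), Cacna1s, by 1.97 (SE 0.595, adjusted p = 0.00321), Ryr1, by 1.95 (SE 0.641, adjusted p = 0.0066), Mylpf, by 1.70 (SE 0.66, adjusted p = 0.0217), and 4 other fast genes. In a model of mca4 gamma arrays alone 3 genes rose and 14 fell, where 58.4% of all genes were called. There Myh8 (adjusted p = 0.128) and Tnnt1 (adjusted p = 0.0873) did not pass, and those that rose were Myl2, Tnnc1 (adjusted p = 0.0189) and Pygm (adjusted p = 0.00296). In the model of all arrays the count was 3 or 4 without unirradiated replicate 1 or 2, and 7 without replicate 2 of day 41. With 1 value a group none passed.

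Averaged over all times after carbon ions, 4 of the 5 slow genes and both embryonic genes of mmca were lower than in unirradiated tumours. The slow gene Mybpc1 (change 0.09) and the fast genes were not. Of 32 genes 6 fell and none rose, where 40.4% of all genes were called (15.2% higher and 25.2% lower). They were Myh3 (-1.59, SE 0.352, adjusted p = 1.78e-04), Tnni1 (-1.69, SE 0.435, adjusted p = 0.00111), Tnnt1 (-1.49, SE 0.434, adjusted p = 0.00404), Tnnc1 (-1.47, SE 0.453, adjusted p = 0.0067), Myh8 and Myl2. All 13 fast genes had positive changes, with a median of 0.68, and none passed. The fast mean by time was 1.97 and 2.05 at hour 0, 1.74 and 1.77 at hour 6, 2.41 and 2.42 at day 1, 2.61 and 2.67 at day 3, 3.02 and 3.15 at day 5, and 4.42 and 4.45 at day 20. After hour 6 it was higher at each sampled time than at the one before. Tnnc1 did not follow that order, at 1.06 and 0.963, then -0.0049 and -0.099, -0.016 and -0.041, 0.400 and 0.596, -1.93 and -2.02, and -0.725 and -0.748 at the same times. The mean of all 5 slow genes was not lower at every time. It was 1.429 and 1.422 at hour 0 and 1.399 and 1.425 at day 3. At hour 6 and days 1, 5 and 20 it lay between -0.488 and 0.765.

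A model of mmca carbon ion arrays alone, whose replicates nearly coincided, called 18 genes higher and 8 lower, where 58.0% of all genes were called. All 13 fast genes were among the higher ones, Myh4 by 1.68 (SE 0.0746, adjusted p = 3.15e-12) and Ckm by 1.00 (SE 0.0612, adjusted p = 1.85e-10). Tnnc1, Tnni1, Tnnt1, Myl2, Myh3 and Myh8 were among the lower ones. In the model of all arrays the same Myh4 change had an SE of 1.04 and an adjusted p of 0.199, so the same change passed or did not pass according to which arrays set the spread. Leaving out either hour 0 array left 3 calls in the model of all arrays, and with 1 value a group none passed.

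In mca4 after carbon ions all 32 muscle genes had positive changes, with a median of 0.65 against -0.045 over all genes. Only Myh8, by 0.95 (SE 0.338, adjusted p = 0.0253), and Myh3, by 0.96 (SE 0.352, adjusted p = 0.0289), passed, where 31.9% of all genes were called (14.4% higher and 17.5% lower). The times did not form a trend, since the fast mean was 1.95 and 1.92 at hour 0, 0.622 and 0.602 at hour 6, 3.95 and 3.81 at day 1, 0.565 and 0.603 at day 3, 3.19 and 3.09 at day 5, and 4.78 and 4.74 at day 20. Acta1 ran the same way, at 4.60 and 4.54, then 2.76 and 2.84, 6.77 and 6.39, 3.07 and 3.09, 5.21 and 5.25, and 7.28 and 7.24. Groups 1 to several days apart thus differed by more than 3 units in either direction, with replicates within 0.4 units. A model of mca4 carbon ion arrays alone called 28 genes higher and none lower, where 41.0% of all genes were called. Without either hour 0 array no gene passed in the model of all arrays, without day 3 replicate 2 there was 1, and with 1 value a group none passed.

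Between day 5 and the later carbon ion group, slow genes fell in RIF and scc7. In scc7 at day 42, 5 of 32 genes fell and none rose, where 29.2% of all genes were called (13.8% higher and 15.3% lower). Myl2 was -1.58 and -1.22 at day 42, against 3.25 and 3.15 at day 5, a fall by 4.60 (SE 0.693, adjusted p = 2.84e-07). Tnnt1 fell by 3.06 (SE 0.56, adjusted p = 1.30e-05), Tnni1 by 2.79 (SE 0.562, adjusted p = 6.66e-05), Tnnc1 by 2.21 (SE 0.585, adjusted p = 0.00246) and Myh3 by 1.18 (SE 0.447, adjusted p = 0.0387). The 13 fast genes had a median change of -0.48 and none passed. A model of scc7 carbon ion arrays alone called 29 lower, where 40.3% of all genes were called, and with 1 value a group none passed.

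In RIF at day 20 after carbon ions, 7 of 32 genes fell and none rose against day 5, where 40.4% of all genes were called (24.8% higher and 15.6% lower), and all 32 had negative changes with a median of -1.45. Myl2 fell by 3.50 (SE 0.693, adjusted p = 2.96e-05), Tnnc1 by 2.30 (SE 0.585, adjusted p = 9.35e-04), Tnni1 by 2.09 (SE 0.562, adjusted p = 0.00174) and Tnnt1 by 1.88 (SE 0.56, adjusted p = 0.00478), beside Myh3, Des and Mb. Ckm was 0.869 and 0.560 at day 20, against 2.86 and 2.82 at day 5, and did not pass (adjusted p = 0.158). A model of RIF carbon ion arrays alone called all 32 lower, where 52.3% of all genes were called. Without either day 20 array or day 5 replicate 1 the model of all arrays called 4, and with 1 value a group none passed.

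In nfsa and nrs1 at day 20 after carbon ions no muscle gene passed against day 5 with limma, where 18.1% of all genes were called in nfsa (10.8% higher and 7.26% lower) and 32.2% in nrs1 (21.5% higher and 10.7% lower). At an unadjusted p under 0.05 there were 0 and 1. The median change was -0.31 in nfsa and 0.65 in nrs1, where 29 of 32 changes were positive. Models of each tumour's carbon ion arrays alone called 1 higher and 19 lower in nfsa (40.2% of all genes) and 26 higher and 2 lower in nrs1 (40.6% of all genes).

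In the remaining comparisons no muscle gene passed with limma. Unirradiated mmca at day 9 against day 1 had a median change of 0.80 over 26 genes, with 1 at an unadjusted p under 0.05, where 21.0% of all genes were called (8.61% higher and 12.4% lower). scc7 after 50 Gy (days 23 and 35) against 30 Gy (day 8), where dose and time differ together, had a median of -1.01 and 9 genes at an unadjusted p under 0.05, where 2.62% of all genes were called (1.70% higher and 0.924% lower). nrs1 after 50 Gy (day 15) against 30 Gy (day 8) had a median of -0.86 and 0 genes at that level, where 10.5% of all genes were called (2.91% higher and 7.54% lower). Single arrays moved these counts. Without replicate 1 of scc7 at day 35 there were 5 calls, without replicate 2 of nrs1 at 30 Gy there were 8, and without unirradiated replicate 2 of mmca at day 9 there were 2. Models of the tumour's own arrays called 0 in all 3, where 30.3%, 0.0731% and 0.00661% of all genes were called.

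**Figure D5:**
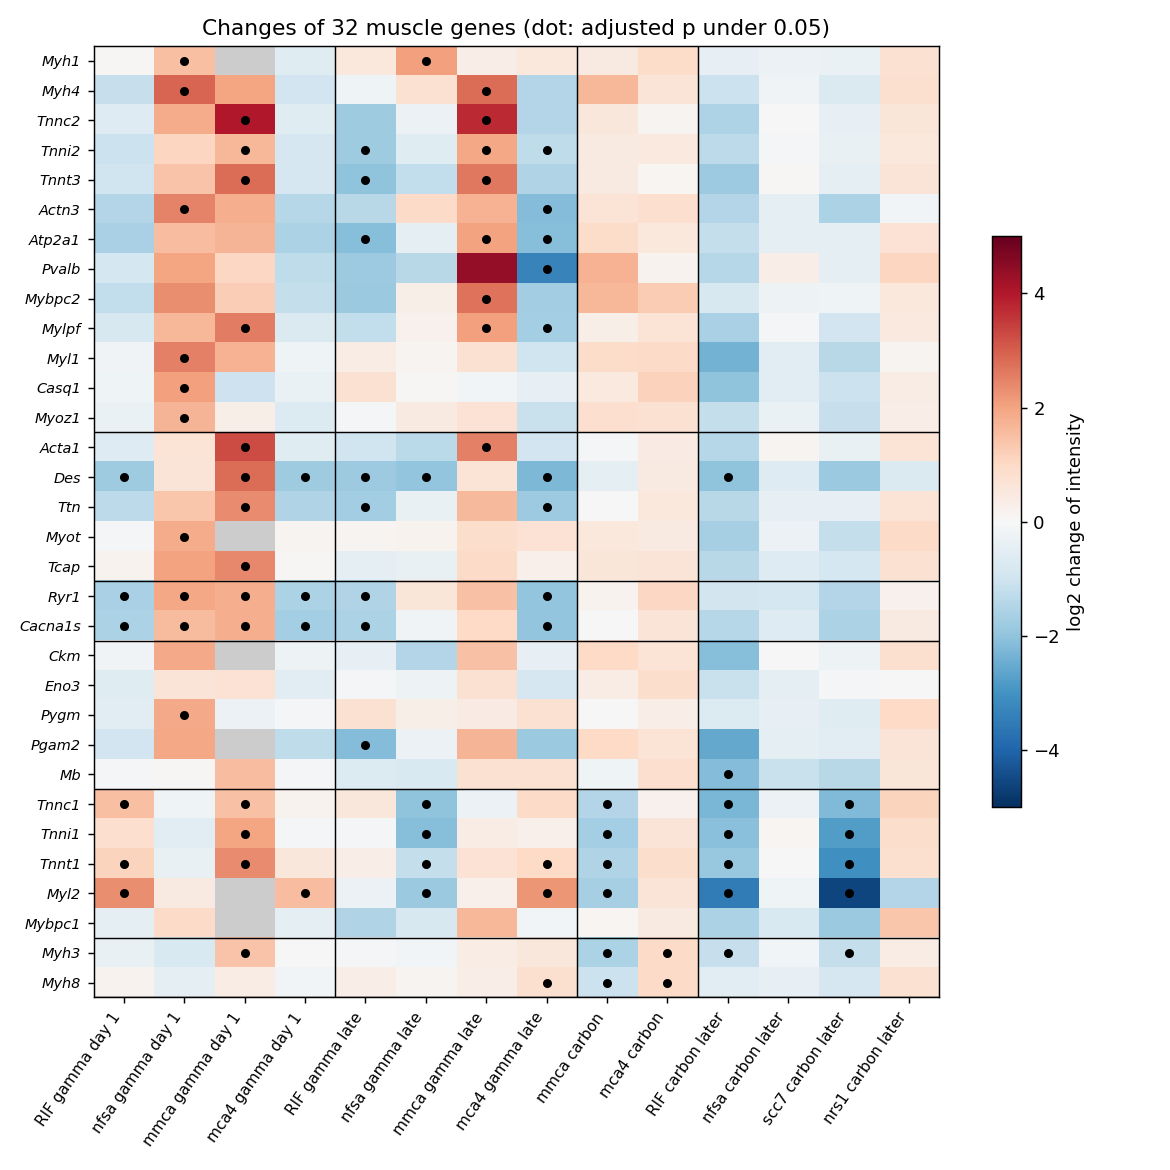
Log2 change (colour, irradiated minus unirradiated or later minus earlier) of the 32 muscle genes, grouped by role, in 14 comparisons, with dots where the adjusted p was under 0.05 and grey where a group had no value. Blocks of positive change stand in mmca and nfsa at gamma day 1 and late mmca, and slow genes reach -4.60 (Myl2, scc7 after carbon ions, day 42 minus day 5).

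Further muscle genes followed the fast mean to different degrees. Of 40 further genes of mature muscle 31 were measured, and the mean of these followed the fast mean with r = 0.91 over the 49 late gamma arrays. Single genes had a median r of 0.77, and 11 of the 31 passed 0.8. Triadin (Trdn), of the calcium release complex, had 0.957, Mylk2, the myosin light chain kinase of skeletal muscle, 0.934, and Hrc, a calcium-binding protein of the sarcoplasmic reticulum, 0.93. At the other end were Fbxo32, a muscle ubiquitin ligase component, at 0.303 and beta-tropomyosin Tpm2 at 0.388. Tpm2 fell by 0.64 in nfsa at day 1 (SE 0.0832, adjusted p = 1.35e-08), where 6 others of the 31 rose. Of all genes 9.30% were called higher and 18.0% lower in that comparison. Of 6 further slow fibre genes 4 were measured, with a median r of 0.192 and none over 0.8. The 12 genes outside every list whose deviations were most like the fast mean over all arrays were Cmya5 (r = 0.953), Mypn (0.927), Hjv (0.926), 3425401B19Rik (0.921), Klhl31 (0.901), Txlnb (0.888), Dusp13 (0.888), Rtn2 (0.887), St8sia5 (0.883), Rpl3l (0.882), Wfdc1 (0.876) and Mrln (0.876). Over the late gamma arrays 49 of 15053 genes outside the lists passed an r of 0.8.

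Markers of other tissues of the leg moved with the fast mean to different degrees. Over the 49 late gamma arrays r was 0.701 for the mean of 12 measured myogenic regulator and satellite cell genes. Single genes of that list followed less closely, with a median r of 0.347, from -0.158 (Chrnd) to 0.773 (Myf6). For the mean of 4 tendon genes r was 0.689 (single-gene median 0.49), and for 5 adipocyte genes 0.61 (single-gene median 0.315). Of the adipocyte genes Car3, also made by muscle, had 0.8 and Adipoq, the adipokine of fat cells, 0.036. The r of the mean was 0.355 for 7 smooth muscle genes, 0.168 for 4 Schwann cell and nerve genes and 0.147 for 5 cardiac genes. For 3 simple epithelial genes it was 0.0381 and for 3 keratinocyte genes -0.1. The tendon mean ranged from -0.790 to 2.39 over all arrays. Thbs4, a matrix protein of tendon that muscle also makes, differed by tumour. It lay between 7.18 and 8.53 on all nfsa arrays with a value and at 6.13 or less in the other tumours. Thbs4 rose by 4.21 in mmca at day 1 (SE 0.705, adjusted p = 3.00e-06) and fell by 2.03 in the late groups of RIF (SE 0.675, adjusted p = 0.00698). In those late RIF groups 3 of 4 tendon genes and 3 of 5 adipocyte genes fell, where 36.4% of all genes were called lower. The remaining tendon gene, Tnmd, rose by 0.40 (SE 0.166, adjusted p = 0.0281). In late nfsa, beside the lower slow genes, 5 of 7 smooth muscle genes fell, where 31.6% of all genes were called lower, Tagln by 1.99 (SE 0.21, adjusted p = 6.38e-13). In late mmca, beside the higher fast genes, 3 of 3 keratinocyte and 3 of 7 smooth muscle genes rose, where 22.5% of all genes were called higher, the basal keratin Krt5 by 4.16 (SE 0.299, adjusted p = 2.88e-19). Another smooth muscle gene, Smtn, fell there by 0.45 (SE 0.116, adjusted p = 0.0011). In mmca at day 1, 2 of 3 keratinocyte and 3 of 7 smooth muscle genes rose, where 16.4% of all genes were called higher. In late mca4, 3 of 4 tendon and 3 of 4 Schwann cell and nerve genes fell, where 31.8% of all genes were called lower. Tnmd again went the other way, with a rise of 0.66 (SE 0.168, adjusted p = 5.13e-04). The Schwann cell and nerve mean differed by tumour before irradiation, so it cannot be read as leg nerve alone. At gamma day 1 it was 4.64 and 4.43 in unirradiated mca4 and 3.99 and 4.09 in mmca. It was 0.696 and 0.676 in unirradiated RIF and 0.679 and 0.527 in nfsa. Which cells gave this signal was not tested. Between carbon ion times in RIF, where muscle genes fell, 6 of 7 smooth muscle genes rose, where 24.8% of all genes were called higher, Tagln by 3.24 (SE 0.275, adjusted p = 4.69e-16). The part of these tissues in the muscle results was not tested.

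Probes of 1 gene did not always agree. Ttn had 5 eligible probes, whose r with the brightest probe over all arrays ran from -0.249 to 0.918, and Ryr1 had 4, from -0.0261 to 0.953. The 3 probes of Mybpc1 had r of 0.927 or more, and the 2 of Mb had 0.983. Values of Ttn and Ryr1 thus depend on the choice of the brightest probe.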

How the data were processed

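Intensities of a one-colour CodeLink array (Cy5), made from RNA extracted with ISOGEN and RNeasy per the labels' protocols, were deposited by the authors as 1 table of linear intensity values for 36227 probes, with 81 gamma and 40 carbon ion arrays. How they were normalized is not given in the sources used here, and they were not normalized again. The platform annotation gave 1 symbol for 21615 probes, several for 681 and none for 13931. Intensities below the 5th percentile of positive values (0.1269), the 1831 values at or below 0 included, were set to it, and log2 was taken of the deposited intensities. Missing values stayed missing.

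One limma model (R 4.3.3, limma 3.58.1) of 54 group means over all arrays used eBayes with a trend, 2-sided contrasts and Benjamini-Hochberg adjustment over all genes. The script was tested on simulated data. Figures used Python 3.11.15 and matplotlib 3.10.9. Alternatives were models of each tumour's own arrays, missing values at the floor, a floor at the 10th percentile, quantile normalization, no dim genes (the lowest 20% by mean), the replicate number as a block, each array left out, the mean of all probes of a gene, and 1 value per group.

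The members, the lists and the rules were chosen with earlier results of these data known. Values are given for Acta1, Ckm, Tnnc2, Tnnc1, Myh4, Myh3, Mylpf and Des and, in each comparison, for up to 4 called members with the smallest adjusted p. The 12 most alike genes were ranked by r of deviations. Other genes were named after their values were seen. Replicate numbers were not treated as pairs in the main model. No 2 arrays were identical, and the lowest r between replicates was 0.968. The number of arrays limits the precision. Promoters are from RefSeq.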

Additional observations from a re-analysis of the deposited data

Results flagged for a closer look

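The day 1 change of muscle genes, irradiated minus unirradiated groups, differed between tumours in the model of all arrays. Whether the groups differed in the amount of muscle taken with the tumour was not tested. The change in mmca minus the change in mca4 passed the test for 14 of 26 genes, all positive, where 32.8% of all genes were called (17.9% positive), with a median difference of 2.37 on the log2 scale. The count was 9 without unirradiated replicate 1 of either tumour and 0 with 1 value a group. The change in nfsa minus the change in RIF passed for 8 of 32 genes, all positive, where 18.5% of all genes were called (10.3% positive), with a median difference of 2.23. No gene passed in a model of these tumours' gamma arrays alone or with 1 value a group, and 3 to 6 passed with 1 array left out. Both were picked out because the difference between the tumours was itself tested.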

How the results depend on the processing

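Counts of called muscle genes depended most on which arrays set the spread. With each group reduced to 1 value, an alternative chosen after seeing the data, 0 genes passed in every comparison that had calls. With models of the tumour's own arrays the count was 1 for RIF and for nfsa and 7 for mca4 at day 1. It was 26 for mmca and 28 for mca4 after carbon ions, 32 for RIF, 20 for nfsa, 29 for scc7 and 28 for nrs1 between carbon ion times, and 0 for nfsa minus RIF. With missing values at the floor it was 5 for nfsa and 2 for mca4 at day 1, 2 for scc7 gamma times, 4 for RIF carbon ion times and 4 for nfsa minus RIF. With quantile normalization it was 0 for mca4 carbon ions, 4 for RIF carbon ion times and 5 for nfsa minus RIF. Without dim genes it was 1 for mca4 carbon ions. The cause of these shifts was not tested.

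With the replicate number as a block, 2 genes were called in late RIF, 3 in late mmca and 5 in nfsa minus RIF, with no other count of calls moved by over 1.5 times. The rule for pairing asked that every pair of deviations in a tumour and beam be correlated above 0.1. No tumour and beam with 3 or more pairs met it, but so strict a rule cannot show that the numbers do not pair arrays. The share above 0.1 was 80% for mmca (median r 0.202) and 60% for mca4 (median r 0.118) after carbon ions. It was 66.7% for scc7 after gamma rays and 28.6% or less in the others with 3 or more pairs.

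Leaving out 1 array at a time gave counts at day 1 of 1 to 6 for RIF, 7 to 14 for mmca, 0 to 8 for nfsa and 0 to 3 for mca4. Late gamma counts were 1 to 13 for RIF, 0 to 12 for mmca, 4 to 7 for nfsa and 3 to 16 for mca4. Carbon ion counts were 3 to 6 for mmca and 0 to 2 for mca4 against hour 0. Between carbon ion times they were 4 to 5 for RIF, 0 to 0 for nfsa, 4 to 4 for scc7 and 0 to 0 for nrs1. They were 0 to 2 for mmca growth, 0 to 5 for scc7 and 0 to 8 for nrs1 gamma times. They were 9 to 14 for mmca minus mca4 and 3 to 6 for nfsa minus RIF, where any of 15 arrays moved the count by over 1.5 times. Without nfsa 70 Gy replicate 1 the nfsa day 1 count was 6. The median residual SD of muscle genes stayed between 0.888 and 0.971 under the alternatives run on it. Over 70 calls of single genes no change reversed its sign in the alternatives run, and refits without 1 array lost a call 91 times and kept it 599 times.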
